A study of Mus musculus with 36 samples.

Results

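The contrast described here asks how the response to X-rays in mouse liver, an organ known to tolerate radiation, differs from that in spleen and thymus, lymphoid organs known to be radiosensitive. For each gene it is the log2 X-ray effect in liver minus the mean of the log2 X-ray effects in spleen and thymus, so a negative value means that the gene rose less, or fell more, in liver. It rests on 18 of the 36 libraries of the series, all paired-end and all from mice with wild-type p53. The 6 groups of 3 libraries were liver, spleen and thymus taken 3 h after 2 Gy of X-rays and the same 3 organs from untreated mice. No deletion, transgene or other agent was carried by any of these groups, and the labels give neither the strain nor the age of the mice. The other 18 libraries were single-end, belonged to mice lacking the C-terminus of p53 or to irradiated mice with wild-type p53, had no untreated group among their titles and were not analysed here.

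Ionising radiation breaks DNA, and the break-activated kinases stabilise p53, a transcription factor that binds its response elements as a tetramer and switches on its target genes. One group of targets halts the cell cycle (Cdkn1a, Ccng1) or limits p53 itself (Mdm2), another drives apoptosis through the mitochondria (Bax, Bbc3, Pmaip1) or death receptors (Fas), and others serve repair and metabolism. Thymocytes and splenic lymphocytes are known to die by p53-dependent apoptosis within hours of irradiation, whereas hepatocytes, which are mostly quiescent, are known to survive the same dose.

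The p53 response element is made of 2 half-sites of 10 bases, each with a conserved C and G in its core. The window from 250 bases before to 50 bases after the annotated start was searched for this 20-base element without a spacer, with every core C and G kept and up to 3 other mismatches, on a consensus that reads the same on both strands. A match was found in 218 of the 11693 tested genes with a promoter in the RefSeq table (GRCm38.p6), which is 1.86%. Matches were found in 10 of 195 promoters (5.13%) of genes that rose in both lymphoid organs without a called change in liver, and in 7 of 37 promoters (18.9%) of genes that rose in all 3 organs but less in liver. Among genes that fell in both lymphoid organs and not in liver the share was 2 of 151 (1.32%), among genes that rose in liver alone it was 1 of 110 (0.909%), and among genes that fell in liver alone it was 1 of 135 (0.741%). A match describes letters in this window, not a bound site. Named genes with other patterns also had matches, each with 3 mismatches. They included Trp53, with no called effect in any organ, and Angptl8, which fell in liver. C77080, which fell in liver and rose in both lymphoid organs, had one too. The promoters below are shown because Bbc3 rose in spleen and thymus without a called change in liver, whereas Cdkn1a, Ccng1 and Aen rose in all 3 organs. Each runs 5′ to 3′ on the strand of its gene, with the matched 20 bases in capitals and positions counted from the start base as 0.

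Bbc3, chr7:16309333-16309632, + strand, match at positions -97 to -78, 3 mismatches: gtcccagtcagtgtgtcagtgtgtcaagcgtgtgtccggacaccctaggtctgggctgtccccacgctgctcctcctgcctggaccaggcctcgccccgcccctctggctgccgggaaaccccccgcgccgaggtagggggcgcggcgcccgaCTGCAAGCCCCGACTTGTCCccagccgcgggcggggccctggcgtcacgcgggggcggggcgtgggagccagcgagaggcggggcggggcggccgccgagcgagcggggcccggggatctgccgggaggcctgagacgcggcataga

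Cdkn1a, chr17:29090729-29091028, + strand, match at positions -51 to -32, 1 mismatch: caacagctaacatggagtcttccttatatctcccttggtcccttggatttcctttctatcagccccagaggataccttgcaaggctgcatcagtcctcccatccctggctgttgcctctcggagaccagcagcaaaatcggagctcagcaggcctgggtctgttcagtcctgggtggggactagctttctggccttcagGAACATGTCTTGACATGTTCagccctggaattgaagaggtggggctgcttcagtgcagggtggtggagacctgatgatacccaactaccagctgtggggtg

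Ccng1, chr11:40755237-40755536, - strand, match at positions -195 to -176, 1 mismatch: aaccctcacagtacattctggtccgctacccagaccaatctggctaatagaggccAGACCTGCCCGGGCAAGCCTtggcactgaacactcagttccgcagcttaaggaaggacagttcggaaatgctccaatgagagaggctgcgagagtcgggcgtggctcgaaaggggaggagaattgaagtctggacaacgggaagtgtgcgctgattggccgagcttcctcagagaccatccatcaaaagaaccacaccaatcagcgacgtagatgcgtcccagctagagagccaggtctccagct

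Aen, chr7:78895808-78896107, + strand, match at positions -121 to -102, 3 mismatches: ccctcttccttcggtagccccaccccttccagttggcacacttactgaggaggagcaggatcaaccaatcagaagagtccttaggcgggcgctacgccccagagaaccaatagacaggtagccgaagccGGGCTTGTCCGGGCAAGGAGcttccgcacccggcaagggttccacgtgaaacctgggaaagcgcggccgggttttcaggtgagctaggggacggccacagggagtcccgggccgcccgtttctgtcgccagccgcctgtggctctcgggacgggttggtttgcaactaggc

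The promoters shown were picked among named genes with a match, so matches in genes of both patterns followed from that choice. No matched window was obtained for other named p53 targets, among them Bax, Mdm2, Phlda3, Sesn2 and Eda2r. Whether each of these had a promoter in the RefSeq table is not given here. The match had 3 mismatches both in Bbc3, which had no called change in liver, and in Aen, which rose there. The positions hold for the annotated start shown. Aen has another annotated start, from which the same site lies at positions 10 to 29. The Bbc3 window lies inside the span of its gene, so its start is not the outermost one. The Ccng1 start also lies inside the span of its gene and is not the outermost one.

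The libraries held 44348579 to 81322683 reads on genes, and 1 read was worth 0.00991 to 0.0377 units of the deposited normalised signal (CPM scaled by a factor per library, called units below). Libraries of one group correlated at r of 0.980 to 0.995 across genes, and the median SD within a group was 0.185 on the log2 scale in liver, 0.163 in spleen and 0.139 in thymus. The organs carried their defining transcripts: 12 hepatocyte markers summed to 384182, 418072 and 433262 units in irradiated livers and to 359102, 391583 and 411306 units in untreated livers. Marker sums, here and below, run from lowest to highest and not in library order. The same markers summed to 99.9, 497 and 582 units in irradiated spleens against 46.8, 57.3 and 69.5 units in untreated spleens, and to 184, 208 and 1666 units in irradiated thymi against 63.6, 83.2 and 232 units in untreated thymi. By library, hepatocyte transcripts were high in spleen X-ray libraries 2 and 3 and thymus X-ray library 3. A fit with these 3 libraries left out is given further below for gene totals, classes and the named genes as a set. The gene lists were not counted in that fit, which keeps a single irradiated spleen library. Xist exceeded the Y-linked Ddx3y in 2 of 3 irradiated and 1 of 3 untreated libraries of each organ, so the sexes were not balanced between treatments. The labels do not name the animals, so the p-values measure the spread between these libraries. In whole organs, fewer cells of a type and less RNA per cell cannot be told apart.

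Of 15654 genes tested, 3956 (25.3%) had a called contrast, at an adjusted p under 0.05 by limma, adjusted by the Benjamini-Hochberg method across these genes. The contrast was positive for 1833 genes (11.7%) and negative for 2123 (13.6%). Large differences leaned further to one side, since 160 genes had a contrast of at least 1 on the log2 scale and 480 had one of -1 or lower. Quantile scaling of the libraries turned the split of calls, with 57.2% of 3726 calls higher against 46.3% of calls as deposited. The response itself was called for 1586 genes (10.1%) in liver, 5608 (35.8%) in spleen and 1840 (11.8%) in thymus. The difference of liver from spleen was called for 4126 genes (26.4%) and that from thymus for 2428 (15.5%). More contrasts were called against spleen than against thymus. Of the negative contrasts 736 were called against both spleen and thymus, 855 against spleen alone, 341 against thymus alone and 191 against neither singly. Of the positive contrasts 683 were called against both, 759 against spleen alone, 267 against thymus alone and 124 against neither.

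Genes with a called contrast were then sorted by pattern. The first 2 classes also required the difference from spleen and that from thymus to be called in one direction, and these differences share the liver libraries. The class called in both lymphoid organs and not in liver held 247 genes that rose there (1.58% of genes tested), with median effects of -0.13 in liver against 0.87 in spleen and 0.80 in thymus. It also held 198 genes that fell there (1.26%), with medians of 0.19 in liver against -0.53 in spleen and -0.47 in thymus. In the class called in liver and in neither lymphoid organ, 140 genes rose (0.894%), with medians of 0.62 in liver against -0.15 in spleen and -0.21 in thymus. Another 187 genes fell in liver (1.19%), with medians of -0.72 in liver against 0.16 in spleen and 0.19 in thymus. Of these 187 only 121 reached a mean of 1 unit in any group of each organ, and the other 66 were below that level in at least 1 organ, where no response could be seen. The other classes were set by the contrast and by the effect being called in each organ, and not by the differences from single organs. The liver and lymphoid effects were called in opposite directions for 29 genes with a positive contrast (0.185%) and 18 with a negative one (0.115%). Another 47 genes rose in all 3 organs with a negative contrast (0.3%), so that the rise in liver was below the mean of the lymphoid rises, though not always below each. Their median effects were 0.80 in liver, 2.27 in spleen and 2.10 in thymus. Eda2r and Vsir, the second named after its values were seen, rose in all 3 organs with a positive contrast (0.0128%).

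**Figure D1:**
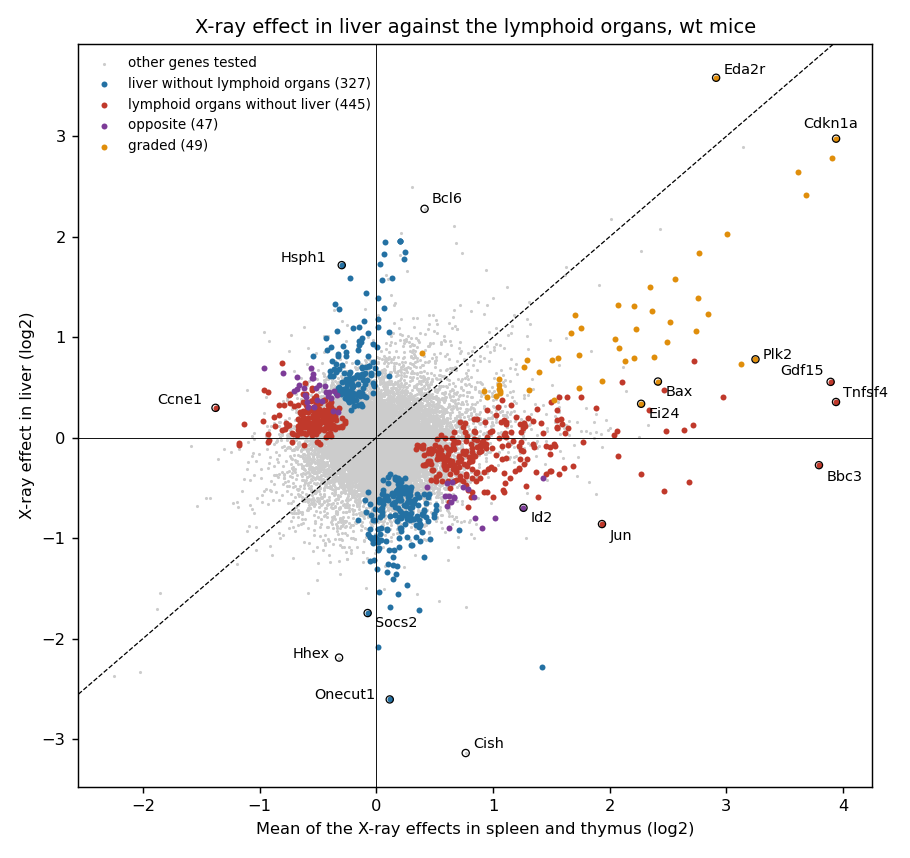
Log2 X-ray effect in liver (vertical axis) against the mean of the log2 effects in spleen and thymus (horizontal axis) for each gene tested, coloured by class, with equal effects on the dashed line. The 247 genes that rose in lymphoid organs without a called change in liver spread to the right near a liver effect of 0, whereas the 327 genes called in liver alone spread up and down near a lymphoid effect of 0.

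These counts moved with single libraries and with Xist as a term in each organ. Without liver X-ray library 1 the contrast called 5408 genes and the liver class held 1133. Without liver X-ray library 2 these counts were 2475 and 58. Without thymus X-ray library 3 the thymus effect was called for 689 genes and the lymphoid class held 193. With Xist as a covariate in each organ the contrast called 2602 genes and the liver effect 302, and 1034 genes had a called effect in thymus. In that fit 128 of the 247 lymphoid risers and 61 of the 198 lymphoid fallers stayed in their class, as did 28 of the 140 genes that rose and 32 of the 187 that fell in liver alone. The contrast also followed base composition. When genes were put in 10 bins of equal size by GC, the lowest bin (median 39.6%) had a median contrast of 0.31, with medians of 0.17 in liver against -0.14 in spleen and -0.15 in thymus, and the highest bin (59.4%) one of -0.49, with -0.30 in liver, 0.18 in spleen and 0.20 in thymus. The Spearman correlation with GC across 14248 genes, which are not independent replicates, was -0.50 for the contrast. With a smooth GC trend removed from each library 2516 genes had a called contrast, against 3726 of the same genes before, and 131 of 238 lymphoid risers, 57 of 186 lymphoid fallers, 38 of 133 liver risers and 54 of 179 liver fallers stayed in their class. The part of base composition in the results was not tested beyond this.

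**Figure D2:**
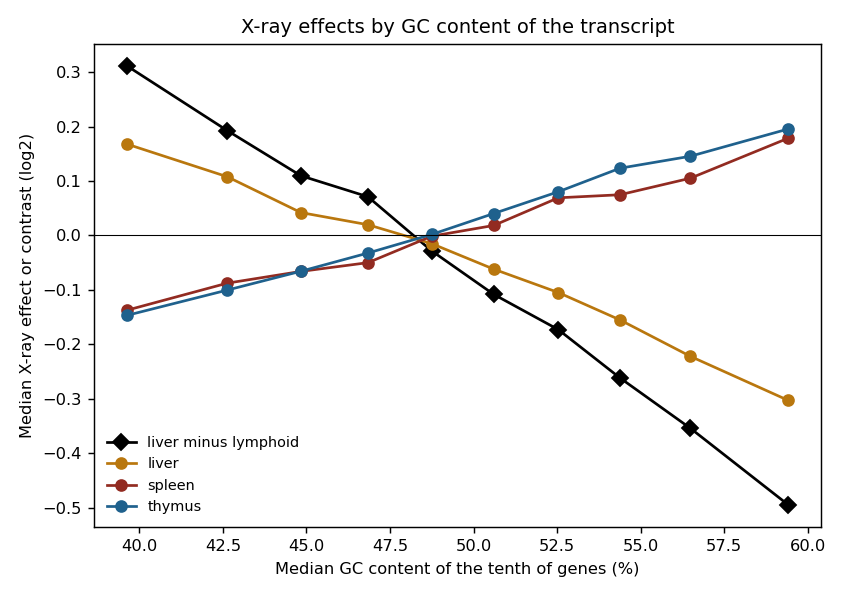
Median log2 X-ray effect (vertical axis) in 10 bins of genes by GC content of their longest transcript (horizontal axis, percent), for liver, spleen, thymus and the contrast. The contrast runs from 0.31 in the lowest bin to -0.49 in the highest, with liver falling and both lymphoid organs rising along the axis.

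Bbc3 (chr7:16308398-16318334 on GRCm38), which encodes the BH3-only killer protein PUMA, had the lowest contrast in the class called in lymphoid organs without liver. It stood at 7.35, 1.66 and 5.06 units in irradiated livers, against 6.25, 4.54 and 4.39 in untreated livers. In spleen it stood at 58.4, 57.7 and 51.4 units in irradiated spleens, against 3.42, 2.79 and 4.06 in untreated spleens. In thymus it stood at 35.9, 50.4 and 48.9 units in irradiated thymi, against 3.02, 2.56 and 3.14 in untreated thymi. Irradiated spleens and thymi were all far above their untreated groups, and the liver groups overlapped. The ratio of group means was 0.927 in liver, 16.3 in spleen and 15.5 in thymus. Its contrast was -4.07 ± 0.38 (SE), adjusted p = 5.04e-06, and the 95% interval of its liver effect was -0.94 to 0.39.

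Bax (chr7:45461695-45466903), the pore-forming effector of mitochondrial apoptosis, rose in liver too, but far less. It had 36.1, 29.6 and 33.8 units in irradiated livers, against 22.5, 24.4 and 20.2 in untreated livers. Its level was 201, 183 and 165 units in irradiated spleens, against 37.7, 38.5 and 40.3 in untreated spleens, and it was 164, 164 and 151 units in irradiated thymi, against 27.8, 25 and 24.9 in untreated thymi. The groups did not overlap in any organ, with ratios of means of 1.48 in liver against 4.72 in spleen and 6.18 in thymus and a contrast of -1.85 ± 0.12 (SE), adjusted p = 9.74e-08. Pmaip1, encoding the BH3-only protein NOXA, had 1.98, 2.9 and 2.77 units in irradiated livers, against 1.07, 0.756 and 1.42 in untreated livers. Its means were 37.2 ± 6.11 units in irradiated and 5.68 ± 0.842 in untreated spleens, and 41 ± 0.426 units in irradiated and 7.6 ± 1.32 in untreated thymi (SD, n = 3 each). It rose in all 3 organs, with a contrast of -1.53 ± 0.22 (SE), adjusted p = 0.000325. Bok, a Bax-like family member, had a contrast of -1.23, with effects of -0.42 in liver against 1.19 in spleen and 0.43 in thymus, of which only that in spleen was called.

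Ei24, an endoplasmic reticulum protein induced by p53, started from a high level in liver, where it had 456, 444 and 447 units in irradiated livers, against 336, 359.6 and 371 in untreated livers. Its spleen values were 264, 237 and 248 units in irradiated spleens, against 53.1, 51.1 and 49.9 in untreated spleens. The groups did not overlap in liver or spleen, its liver effect was called but small, and the contrast of -1.93 ± 0.10 (SE) had an adjusted p of 4.52e-09. Fas, the death receptor, had 33.4, 30.9 and 30.9 units in irradiated livers, against 24.9, 29.9 and 35.3 in untreated livers, an overlap, and 16.2, 18.2 and 18.5 units in irradiated spleens, against 3.09, 2.73 and 3.4 in untreated spleens. Its effects were 0.09 in liver against 2.35 in spleen and 0.94 in thymus, and its contrast was -1.55 ± 0.15 (SE), adjusted p = 5.35e-06. Pidd1, the scaffold of the PIDDosome, had effects of -0.22 in liver against 0.79 in spleen and 1.79 in thymus and a contrast of -1.51, adjusted p = 0.00149. Perp, a membrane effector of p53, had effects of -0.04 in liver against 0.81 in spleen and 0.58 in thymus and a contrast of -0.74, and neither gene had a called liver effect.

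Other death genes rose clearly in liver too. Eda2r (chrX:97333837-97377234), a receptor of the TNF receptor family, had 13.8, 16.3 and 16.8 units in irradiated livers, against 1.21, 0.605 and 0.787 in untreated livers. It had 13.7, 13.1 and 13.2 units in irradiated spleens, against 0.629, 0.53 and 0.436 in untreated spleens, and 2.93, 3.67 and 3.73 units in irradiated thymi, against 0.454, 0.337 and 0.514 in untreated thymi. Every irradiated library exceeded every untreated one, and the effects were 3.58 in liver against 3.75 in spleen and 2.07 in thymus, giving a contrast of 0.67 ± 0.19 (SE), adjusted p = 0.018. That call was lost with edgeR, with DESeq2, with the GC trend removed (0.33, adjusted p = 0.221), with Xist in each organ (adjusted p = 0.0587) and without liver untreated library 2. Tnfrsf10b, the mouse TRAIL receptor, had effects of 2.07 in liver against 3.20 in spleen and 1.66 in thymus, and its contrast of -0.36 was not called, with a 95% interval of -0.80 to 0.08. Aen, an apoptosis-enhancing nuclease, rose in every organ (means of 63.5 ± 8.22 units in irradiated and 17.5 ± 2.83 in untreated livers, and 158 ± 14.4 units in irradiated and 21.8 ± 3.36 in untreated spleens, SD, n = 3 each), with a contrast of -0.93 ± 0.16 (SE), adjusted p = 0.0011. Over the list of 19 tested p53 apoptosis genes 10 contrasts were lower and 1 was higher, against 13.6% and 11.7% of all genes, with a median of -0.48 against -0.08 for all genes. Like the other lists, it was chosen with earlier results of these data known. Its lower members include Dcxr, a carbonyl reductase (contrast -2.63). In this list 7 rose in liver, 15 in spleen and 13 in thymus, against 4.74%, 17% and 6.5% of all genes.

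**Figure D3:**
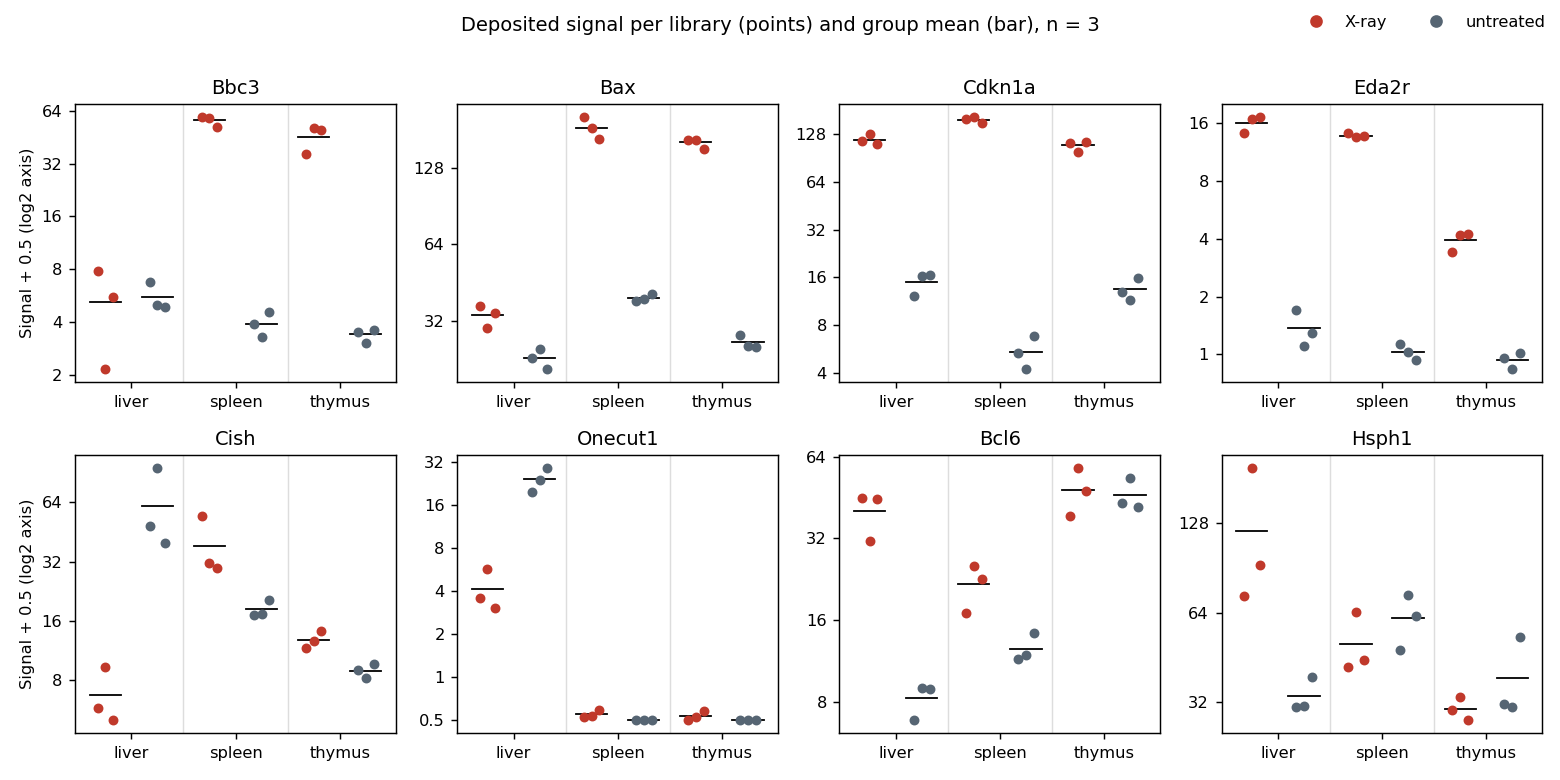
Deposited normalised signal plus 0.5 (vertical axis, log2 scale) of 8 genes in each library, irradiated left of untreated within liver, spleen and thymus, with a bar at each group mean. Bbc3 separates the treatments in spleen and thymus and overlaps in liver, whereas Onecut1, Bcl6 and Hsph1 separate them in liver, and Cish moves in opposite directions in liver and spleen.

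Of 18 arrest and feedback genes tested, 10 rose in liver, 13 in spleen and 13 in thymus, against 4.74%, 17% and 6.5% of all genes, and Sfn fell in liver. Cdkn1a (chr17:29090979-29100722), which encodes the p21 inhibitor of cyclin-dependent kinases, had 115, 126 and 109 units in irradiated livers, against 11.7, 15.9 and 16.1 in untreated livers. Its spleen values were 157, 162 and 150.1 units in irradiated spleens, against 4.88, 3.74 and 6.32 in untreated spleens. In thymus it had 112, 97.7 and 113 units in irradiated thymi, against 12.5, 11.1 and 15.4 in untreated thymi. Irradiated libraries were all above untreated ones, and untreated spleens were the lowest of the untreated libraries. The ratio of means was 8.03 in liver, 31.4 in spleen and 8.28 in thymus, and the contrast was -0.96 ± 0.19 (SE), adjusted p = 0.00275. The difference of liver from spleen was called at -1.89 (adjusted p = 4.33e-05) and that from thymus, -0.04 (adjusted p = 0.925), was not. Ccng1 (chr11:40748552-40755309), cyclin G1, had means of 185 ± 31.9 units in irradiated and 44.8 ± 3.64 in untreated livers, 549 ± 16.1 units in irradiated and 56.1 ± 0.0999 in untreated spleens, and 502 ± 42.9 units in irradiated and 75 ± 3.98 in untreated thymi (SD, n = 3 each), with a contrast of -0.98 ± 0.13 (SE), adjusted p = 0.000161. Mdm2, the ubiquitin ligase that degrades p53, had effects of 0.78 in liver against 1.86 in spleen and 0.72 in thymus and a contrast of -0.52, adjusted p = 0.00457.

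Plk2, a polo-like kinase, had the lowest contrast of this list at -2.47 ± 0.25 (SE), adjusted p = 1.09e-05. It had 19.5, 33 and 33.7 units in irradiated livers, against 14.5, 14.1 and 20.2 in untreated livers, a rise that was called but small beside effects of 2.82 in spleen and 3.68 in thymus. Cdc42bpg, a kinase of the MRCK family, had effects of 0.07 in liver against 1.93 in spleen and 2.19 in thymus and a contrast of -1.99, adjusted p = 1.37e-07. Zmat3, an RNA-binding zinc finger protein, had effects of 1.39 in liver against 3.00 in spleen and 2.51 in thymus and a contrast of -1.36. Phlda3, an inhibitor of Akt signalling, and Sesn2, a sestrin that restrains mTORC1, had contrasts of -0.97 and -0.89, which with the GC trend removed became -0.38 (adjusted p = 0.134) and -0.48 (adjusted p = 0.105). Btg2, an anti-proliferative gene, was the 1 arrest gene with a higher contrast, 0.67 ± 0.21 (SE), adjusted p = 0.0322. It had 54.9, 55 and 74.6 units in irradiated livers, against 28.2, 27.5 and 32.3 in untreated livers, which did not overlap, and its effects of 0.30 in spleen and 0.45 in thymus were not called. Of the 18 contrasts 13 were lower (13.6% of all genes), with a median of -0.78, and with the GC trend removed 8 were lower and 0 higher. Trp53inp1, a nuclear cofactor of p53, had effects of 2.18 in liver against 2.83 in spleen and 1.18 in thymus and a contrast of 0.17 that was not called (95% interval -0.30 to 0.64). Trp53 itself had 38.5, 33.6 and 43.9 units in irradiated livers, against 39.8, 41.3 and 46.8 in untreated livers and a contrast of -0.01 ± 0.14 (SE), adjusted p = 0.951, with a 95% interval of -0.30 to 0.27.

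Of 14 repair targets tested 2 contrasts were lower and 2 higher, near the shares over all genes of 13.6% and 11.7%. The lower ones were Polk, a translesion DNA polymerase, with effects of 1.58 in liver against 2.75 in spleen and 2.36 in thymus, and Ercc5, a nucleotide excision repair nuclease, with effects of 0.37 in liver against 1.46 in spleen and 1.58 in thymus. Ung, the uracil-DNA glycosylase, was higher at 1.11, with effects of -0.07 in liver against -0.79 in spleen and -1.57 in thymus, and it fell in both lymphoid organs. Rev3l, the catalytic subunit of DNA polymerase zeta, was higher at 0.50, a call lost in 12 of the 18 refits that each left out 1 library. Ddias, an anti-apoptotic gene of the damage response chosen after its values were seen, had 17.2, 16.6 and 16 units in irradiated livers, against 3.97, 4.5 and 6.08 in untreated livers and effects of 1.70 in liver against 1.63 in spleen and 1.63 in thymus. Its contrast of 0.07 had a 95% interval of -0.28 to 0.41.

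Several of the lowest contrasts belonged to signalling and metabolic genes that rose in spleen and thymus. Tnfsf4, the OX40 ligand, had 0.124, 0.113 and 0.228 units in irradiated livers, against 0.0326, 0 and 0 in untreated livers, which were 5, 3 and 7 reads in irradiated and 1, 0 and 0 in untreated livers. It had 6.59, 7.32 and 8.85 units in irradiated spleens, against 0.074, 0.0935 and 0.0569 in untreated spleens, and 18.8, 15.8 and 13.2 units in irradiated thymi, against 0.299, 0.426 and 0.716 in untreated thymi. Its contrast on the log2(signal + 0.5) scale was -3.58 ± 0.20 (SE), adjusted p = 1.09e-08, but neither edgeR (-2.21) nor DESeq2 (-2.08), which work on fold changes of reads, called it. Epha2, a receptor tyrosine kinase, was well expressed in liver, with 29.6, 12 and 22.5 units in irradiated livers, against 27.3, 24.8 and 30.3 in untreated livers. It had 30.9, 46.9 and 34.3 units in irradiated spleens, against 1.79, 3.36 and 3.3 in untreated spleens, and its contrast was -3.12 ± 0.34 (SE), adjusted p = 2.76e-05.

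Gdf15, a stress-induced cytokine of the TGF-beta family, had 3.61, 1.32 and 3.26 units in irradiated livers, against 0.945, 3.6 and 0.999 in untreated livers. Its thymus values were 8.53, 8.35 and 20.9 units in irradiated thymi, against 0.165, 0.188 and 0.122 in untreated thymi. The liver groups overlapped and the thymus groups did not, with ratios of means of 1.48 in liver against 19.4 in spleen and 79.6 in thymus and a contrast of -3.34 ± 0.52 (SE), adjusted p = 0.000574. Dcxr, a carbonyl reductase that is abundant in liver, had effects of -0.36 in liver against 3.05 in spleen and 1.49 in thymus and a contrast of -2.63 ± 0.19 (SE), adjusted p = 2.59e-07. Dglucy, the D-glutamate cyclase, had effects of 0.40 in liver against 2.56 in spleen and 3.39 in thymus, with a liver adjusted p of 0.0944, and Hmcn2, an extracellular matrix hemicentin, had effects of 0.07 in liver against 2.43 in spleen and 2.84 in thymus. Slc19a2, a thiamine transporter, had effects of 0.28 in liver against 2.63 in spleen and 2.04 in thymus and a contrast of -2.06. Of 21 genes listed for metabolism and other p53 functions 14 had a lower contrast and 0 a higher one, against 13.6% and 11.7% of all genes, with a median of -1.12, and 14 were lower with the GC trend removed.

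**Figure D4:**
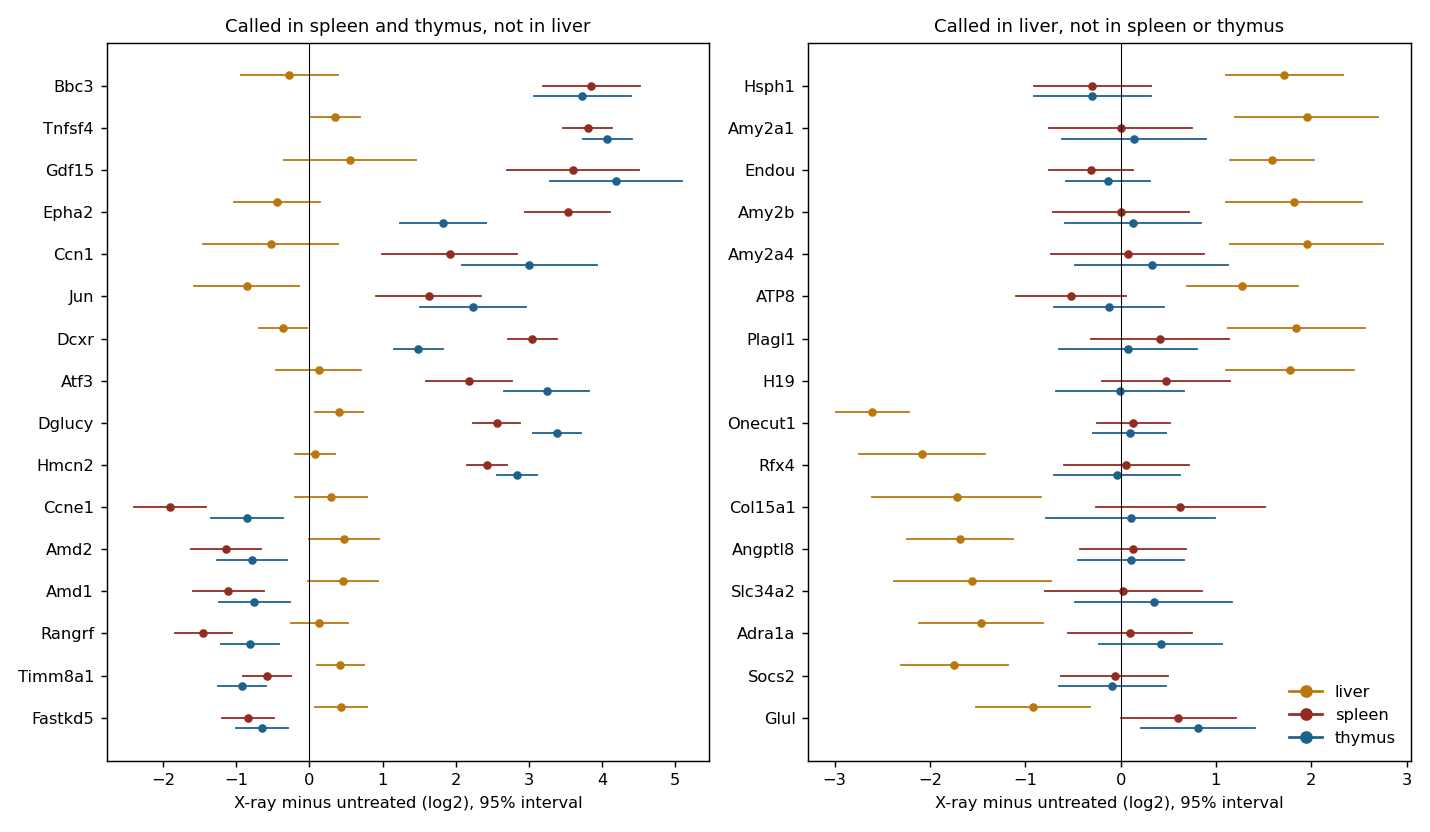
Log2 X-ray effect with its 95% interval (horizontal axis) in liver, spleen and thymus for the genes named from the lymphoid class and the liver class. The liver intervals of Bbc3, Atf3 and Hmcn2 span 0 while their spleen and thymus intervals lie above 1, whereas the liver interval of Onecut1 lies below 0 and its other intervals span 0.

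Immediate early genes, transcription factors and regulators induced within minutes of a stimulus, rose widely in spleen, less widely in thymus, and in no case in liver. Jun, the AP-1 subunit, had 5.22, 7.01 and 9.69 units in irradiated livers, against 8.24, 26.2 and 10.7 in untreated livers. It had 18.2, 23.9 and 20.6 units in irradiated spleens, against 4.85, 5.51 and 9.66 in untreated spleens, and 21.6, 16.9 and 31.8 units in irradiated thymi, against 4.05, 4.27 and 4.97 in untreated thymi. All irradiated lymphoid libraries exceeded their untreated ones, whereas irradiated livers overlapped untreated livers from below, with a liver effect of -0.86 ± 0.34 (SE), adjusted p = 0.106, and a contrast of -2.79 ± 0.42 (SE), adjusted p = 0.000444. Atf3, a stress-induced transcription factor, had 2, 2.11 and 2.51 units in irradiated livers, against 1.82, 1.54 and 2.69 in untreated livers. It had 24.2, 12 and 30.9 units in irradiated thymi, against 1.59, 1.58 and 2.12 in untreated thymi, and its contrast was -2.59 ± 0.34 (SE), adjusted p = 0.000155. Ccn1, a matricellular protein, had effects of -0.53 in liver against 1.92 in spleen and 3.01 in thymus and a contrast of -2.99 ± 0.54 (SE), adjusted p = 0.00135. Ier3 had effects of -0.09 in liver against 1.26 in spleen and 1.73 in thymus, and Jund had -0.58 in liver against 1.03 in spleen and 0.26 in thymus, called as a fall in liver and a rise in spleen. Of 14 genes on this list 11 had a lower contrast and 0 a higher one, against 13.6% and 11.7% of all genes, with a median of -1.25. In liver 2 fell, Jund and Ier2, and 0 rose, against 5.39% and 4.74% of all genes. In spleen 12 rose and in thymus 6, against 17% and 6.5%. With the GC trend removed 7 contrasts were lower, and with Xist in each organ 9 were lower and 0 members fell in liver.

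NF-kB genes rose most widely in spleen. Of 18 tested, 6 rose in liver, 17 in spleen and 6 in thymus, against 4.74%, 17% and 6.5% of all genes, and 0 fell in any. With Xist in each organ 2 rose in liver and 6 contrasts were lower. The contrast was lower for 9 (13.6% of all genes) and higher for 0, with a median of -0.53, while the difference of liver from spleen was lower for 15 (13.6% of all genes) and that from thymus for 2 (8.37%). Nfkbie and Nfkbib, inhibitors that hold NF-kB in the cytoplasm, had effects of -0.21 in liver against 1.57 in spleen and -0.24 in thymus, and of -0.38 in liver against 0.86 in spleen and 0.23 in thymus. Cd83, a surface marker of activated lymphoid and dendritic cells, had effects of 0.15 in liver against 2.5 in spleen and 0.56 in thymus and a contrast of -1.38 ± 0.27 (SE), adjusted p = 0.00258. Nfkb2, the p100 precursor, had a contrast of -0.83, which became -0.38 (adjusted p = 0.0608) with the GC trend removed. Tnfaip3, the A20 deubiquitinase, and Icam1, an adhesion receptor, rose in liver as well, by 1.13 and 1.11, and their contrasts of -0.19 and -0.06 were not called. Ccl2, a monocyte chemokine, had effects of 0.76 in liver against 2.5 in spleen and 2.95 in thymus with a contrast of -1.96, adjusted p = 0.00518. In the same libraries the sum of 12 macrophage markers was 923, 1411 and 1453 units in irradiated spleens against 541, 637 and 724 units in untreated spleens, with 4 of the 12 lower in the contrast, and their part in these rises was not tested.

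The fall of cell cycle genes took different forms. Ccne1, cyclin E1, had 5.52, 10.2 and 6.4 units in irradiated livers, against 4.17, 6.83 and 6.48 in untreated livers. It had 66.9, 33.9 and 39 units in irradiated spleens, against 169.8, 169 and 165 in untreated spleens, and 11.3, 14.5 and 11.6 units in irradiated thymi, against 21.9, 25 and 21.8 in untreated thymi. Irradiated spleens and thymi lay below all their untreated libraries, the liver groups overlapped, and the contrast was 1.67 ± 0.29 (SE), adjusted p = 0.000972. Of 27 S phase genes 11 fell in liver (5.39% of all genes), 25 in spleen (18.8%) and 9 in thymus (5.25%). The liver count was 0 with Xist in each organ, 7 with the GC trend removed and 20 without liver X-ray library 1. In the contrast 5 were higher and 1 lower, against 11.7% and 13.6% of all genes, with a median of 0.14, and beside Ccne1 the higher ones included Mcm10, a replication initiation factor (0.87). Pola1, DNA polymerase alpha (0.54), was called in 12 of the 18 refits without 1 library and not with the GC trend removed.

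Part of the mitotic genes fell in liver. Of 30 genes of the G2/M list 10 fell in liver (5.39% of all genes), and 0 were called in thymus (11.8%). In spleen 0 fell and 1 rose, against 18.8% and 17% of all genes. The contrast was lower for 2 (13.6%), Mki67 (-0.94) and Foxm1 (-0.93), with a median of -0.55. These counts turned on a single library. Without liver X-ray library 1 all 30 fell in liver and the contrast was lower for 28, with a median of -1.03, while with Xist in each organ 0 fell in liver. Mki67, the proliferation antigen, was called in 4 and Foxm1, a mitotic transcription factor, in 2 of the 18 refits without 1 library. Erythroid markers, which mark another dividing population, summed to between 2253 and 5099 units in irradiated livers against 4088 to 6663 units in untreated livers, and their part was not tested.

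Among other genes that fell in lymphoid organs and not in liver, Amd1, S-adenosylmethionine decarboxylase of polyamine synthesis, had effects of 0.46 in liver against -1.11 in spleen and -0.75 in thymus and a contrast of 1.39, and its near-identical copy Amd2 had a contrast of 1.43. Reads of this pair may be split between the copies, so their separate values are uncertain. Rangrf, a Ran-binding protein, had effects of 0.14 in liver against -1.45 in spleen and -0.82 in thymus. Timm8a1, a mitochondrial import chaperone, had effects of 0.42 in liver against -0.58 in spleen and -0.92 in thymus, and Fastkd5, a mitochondrial RNA-processing protein, had 0.43 in liver against -0.84 in spleen and -0.64 in thymus.

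Genes of ribosome biogenesis separated liver from thymus. Of 20 tested 8 rose in liver (4.74% of all genes) and 7 in spleen (17%), while 13 fell in thymus (5.25%) and 0 rose there. The contrast was higher for 8 (11.7%) and lower for 0, with a median of 0.57, and the difference of liver from thymus was higher for 15 (7.14% of all genes) against 3 for that from spleen (12.8%). Gnl3, nucleostemin, had 46.7, 111 and 65.6 units in irradiated livers, against 36, 28.9 and 38.7 in untreated livers. It had 20.2, 18 and 16.9 units in irradiated thymi, against 46.9, 48.4 and 52.4 in untreated thymi, and its effect in spleen was -0.07. Irradiated livers lay above all untreated livers, irradiated thymi lay far below untreated thymi, and the contrast was 1.75 ± 0.28 (SE), adjusted p = 0.000647. Nop56 and Nop58, box C/D ribonucleoprotein cores, had contrasts of 1.22 and 1.29, and Dkc1, the pseudouridine synthase dyskerin, had 1.02. With Xist in each organ 6 contrasts of the list were higher and 1 member rose in liver.

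Among genes that rose in liver and in neither lymphoid organ, Hsph1 (chr5:149616843-149636498), a chaperone of the HSP110 family, had the highest contrast. It had 72, 196 and 91.9 units in irradiated livers, against 30.2, 30.6 and 38.4 in untreated livers. It had 41.3, 63.5 and 43.8 units in irradiated spleens, against 47.5, 72.7 and 62 in untreated spleens, and 29.5, 32.8 and 27.2 units in irradiated thymi, against 31, 30.2 and 52.6 in untreated thymi. Irradiated livers lay above all untreated livers, with library 2 the highest, and the lymphoid groups overlapped. Its contrast was 2.01 ± 0.36 (SE), adjusted p = 0.00123. Endou, a poly(U)-specific endoribonuclease, had 2.55, 5.05 and 5.19 units in irradiated livers, against 1.3, 1.06 and 0.757 in untreated livers. In thymus its level was much higher and its groups overlapped, with 268, 320.0 and 222 units in irradiated thymi, against 279, 342 and 262 in untreated thymi, and it had a contrast of 1.81 ± 0.25 (SE), adjusted p = 0.000275. Plagl1, an imprinted zinc finger transcription factor, had 5.22, 16.7 and 20.8 units in irradiated livers, against 3, 2.99 and 3.21 in untreated livers, with a contrast of 1.60 ± 0.42 (SE), adjusted p = 0.012. It was below 1 unit in every spleen, with 23, 28 and 21 reads in irradiated and 15, 16 and 8 in untreated spleens. Its ratio of means was 2.06 in spleen and 1.05 in thymus. H19, an imprinted noncoding RNA, had 803, 1618 and 936 units in irradiated livers, against 564, 196 and 275 in untreated livers, with a contrast of 1.54 ± 0.39 (SE), adjusted p = 0.0103, that edgeR did not call. In spleen it too was below 1 unit, with 33, 34 and 50 reads in irradiated and 23, 19 and 25 in untreated spleens. Its ratio of means was 1.89 in spleen and 1.02 in thymus. At such levels the scale used understates a change, so a missing spleen call for Plagl1 or H19 says little. The pancreatic amylase copies Amy2a1, Amy2b and Amy2a4 had contrasts of 1.88, 1.76 and 1.75, but share near-identical sequence, were called by neither edgeR nor DESeq2, and the sign of Amy2a4 turned there. Amy2a1 and Amy2b had 0 reads in every spleen and Amy2a4 at most 4, so no response could be seen in spleen. ATP8, a mitochondrially encoded subunit of ATP synthase, had a contrast of 1.60.

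Most genes listed for the unfolded protein response of the endoplasmic reticulum, chaperones among them, rose in liver. Not all genes of this response did, since Atf4 had a liver effect of -0.48 (95% interval -0.83 to -0.13) and Ddit3 one of 0.06. Of 20 listed 15 rose in liver, 7 in spleen and 0 in thymus, against 4.74%, 17% and 6.5% of all genes. The contrast was higher for 7 (11.7% of all genes) and lower for 0, with a median of 0.42. Dnajb9, a co-chaperone of BiP, had 55.4, 212 and 68.8 units in irradiated livers, against 31.3, 29 and 31.8 in untreated livers, and its effects in spleen and thymus were 0.22 and 0.04. Manf, a secreted stress protein, had 148, 312 and 143 units in irradiated livers, against 64.3, 119 and 109.6 in untreated livers. Creld2 had 54.3, 139 and 48.5 units in irradiated livers, against 23.9, 36.1 and 35.5 in untreated livers, and its contrast was 0.97 beside 1.11 for Manf and 1.46 for Dnajb9. Irradiated liver library 2 was the highest of the 6 livers for all 3 genes. Canx, the lectin chaperone calnexin, had 628, 915 and 701 units in irradiated livers, against 486, 525 and 513 in untreated livers and a contrast of 0.57 ± 0.15 (SE), adjusted p = 0.0126, and Dnajc3 and Dnajb11, co-chaperones, and Atf6, a sensor of the response, had contrasts of 0.79, 0.54 and 0.63. Hspa5, which encodes BiP, rose in liver by 0.96, but its contrast of 0.71 had an adjusted p of 0.0524. With Xist in each organ the contrast was higher for 6 of the list and 2 of its members rose in liver, and with the GC trend removed these counts were 6 and 13.

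The genes that fell in liver included transcription factors that specify hepatocytes. Onecut1 (chr9:74861921-74889648), which encodes the hepatic factor HNF6, had 3.07, 5.24 and 2.54 units in irradiated livers, against 19.4, 23.7 and 28.6 in untreated livers. No irradiated liver reached an untreated one, and the liver effect was -2.60 ± 0.18 (SE). It was at 0 in all untreated spleens and thymi and no higher than 0.0912 units in irradiated ones, so no response could be seen there, and its contrast of -2.72 ± 0.22 (SE), adjusted p = 9.26e-07, rested on the liver effect. Hhex, a homeobox factor of the hepatic and haematopoietic lineages, had 22.3, 52.1 and 23.1 units in irradiated livers, against 103, 166 and 156 in untreated livers. It also fell in spleen, with effects of -2.19 in liver against -0.67 in spleen and 0.04 in thymus and a contrast of -1.87 ± 0.30 (SE), adjusted p = 0.000718. Foxa2, a pioneer factor, had 21.7, 17 and 17.9 units in irradiated livers, against 37.6, 40.6 and 38.1 in untreated livers and a contrast of -1.11 ± 0.15 (SE), adjusted p = 0.000217, and Foxa1 had 10.4, 10.3 and 12.2 units in irradiated livers, against 13.8, 18.1 and 20.6 in untreated livers. Tbx3, a T-box repressor, had effects of -0.83 in liver against 1.20 in spleen and 0.30 in thymus and a contrast of -1.57, with a called effect in spleen alone. Of 18 hepatic transcription factors tested 4 fell and 1 rose in liver, against 5.39% and 4.74% of all genes. In the contrast 8 were lower and 0 higher, against 13.6% and 11.7%, with a median of -0.50, though 3 of the 18 were expressed in each organ. With the GC trend removed 4 contrasts were lower and 3 members fell in liver. Hnf4a, the central hepatocyte factor, had effects of 0.40 in liver against 0.54 in spleen and 0.61 in thymus, and its contrast of -0.18 was not called.

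The growth hormone and STAT5 axis, which in liver controls growth factor and feedback genes, had 6 of 15 listed members lower and 2 higher in liver, against 5.39% and 4.74% of all genes. With the GC trend removed, and also with Xist in each organ, 4 were lower. Cish (chr9:107296659-107302784), a STAT5-induced feedback inhibitor, had 5.27, 8.86 and 4.5 units in irradiated livers, against 47.9, 94.9 and 39.4 in untreated livers. It had 54, 30.9 and 29.2 units in irradiated spleens, against 16.7, 16.8 and 20 in untreated spleens, and 11.1, 12.1 and 13.6 units in irradiated thymi, against 8.48, 7.74 and 9.12 in untreated thymi. Irradiated livers lay far below untreated livers and irradiated spleens lay above untreated spleens. The ratio of means was 0.102 in liver, 2.13 in spleen and 1.45 in thymus, and the contrast of -3.90 ± 0.35 (SE), adjusted p = 2.32e-06, was the second lowest value named after that of Bbc3. Its thymus groups did not overlap, and the thymus effect had an adjusted p of 0.256, so Cish fell outside the class of opposite responses.

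Bcl6 (chr16:23965050-23988866), a repressor that STAT5 holds down in liver, rose there. It had 44.6, 30.8 and 44 units in irradiated livers, against 6.35, 8.53 and 8.45 in untreated livers. It had 16.6, 24.8 and 22.2 units in irradiated spleens, against 11, 11.4 and 13.8 in untreated spleens, and 38.4, 57.6 and 47.2 units in irradiated thymi, against 42.6, 52.8 and 41.3 in untreated thymi. The liver groups were far apart, the spleen groups did not overlap, and the thymus groups did, with effects of 2.28 in liver against 0.77 in spleen and 0.05 in thymus and a contrast of 1.86 ± 0.23 (SE), adjusted p = 8.92e-05. Socs2, another feedback inhibitor of growth hormone signalling, had 18.7, 49.8 and 39.8 units in irradiated livers, against 95.5, 153 and 99.2 in untreated livers, with effects of -1.75 in liver against -0.06 in spleen and -0.09 in thymus and a contrast of -1.67 ± 0.33 (SE), adjusted p = 0.00232. Igfals, the acid-labile subunit of the circulating IGF complex, had 114, 80.7 and 61.1 units in irradiated livers, against 140.3, 182 and 153 in untreated livers and a contrast of -1.14, adjusted p = 0.00696. Stat5b, the transcription factor itself, had effects of -0.80 in liver against -0.72 in spleen and 0.10 in thymus, called in liver and spleen, and its contrast of -0.49 was not called. Of 15 genes on this list 5 contrasts were lower and 1 higher, against 13.6% and 11.7% of all genes, with a median of -0.49, and these counts of contrasts were the same with the GC trend removed and with Xist in each organ.

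Other genes of large contrast fell in liver and were called in neither lymphoid organ. For part of them no lymphoid response could be seen: Angptl8 had at most 7 reads in any spleen and 16 in any thymus, Rfx4 at most 4 and 8, and Slc34a2 and Adra1a at most 3 and 6 in any spleen. Angptl8, an inhibitor of lipoprotein lipase, had 21.1, 10.9 and 19 units in irradiated livers, against 86.5, 35 and 51.1 in untreated livers and a contrast of -1.80, adjusted p = 0.00133. Glul, the glutamine synthetase of hepatocytes near the central vein, had 1246, 451 and 388 units in irradiated livers, against 1412, 1179 and 885 in untreated livers. Irradiated liver library 1 lay within the untreated range. Glul had effects of -0.92 in liver against 0.60 in spleen and 0.81 in thymus and a contrast of -1.63, adjusted p = 0.00401. All irradiated spleens and thymi lay above their untreated groups, with ratios of means of 1.52 in spleen and 1.76 in thymus. The missing lymphoid calls thus do not show that Glul was unchanged there. Col15a1, a basement membrane collagen, had 10.2, 1.13 and 2.58 units in irradiated livers, against 10.6, 9.79 and 16.2 in untreated livers. Irradiated liver library 1 lay within the untreated range here too. Col15a1 had effects of -1.72 in liver against 0.62 in spleen and 0.11 in thymus and a contrast of -2.08, adjusted p = 0.0088. Its spleen groups did not overlap, with a ratio of means of 1.67. Adra1a, the alpha-1A adrenergic receptor, Rfx4, a transcription factor, and Slc34a2, a sodium phosphate cotransporter, had contrasts of -1.72, -2.09 and -1.74. The last of these was not called with Xist in each organ (adjusted p = 0.0572), by edgeR or without liver X-ray library 2, and that of Rfx4 was not called by edgeR.

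In the class with opposite responses, Id2 (chr12:25093799-25096092), an inhibitor of helix-loop-helix transcription factors, had the largest contrast. It had 62.1, 43 and 78.4 units in irradiated livers, against 84.4, 99.9 and 107 in untreated livers. It had 75.3, 84.4 and 83.8 units in irradiated spleens, against 28.7, 24.4 and 30.6 in untreated spleens, and 55.7, 57.9 and 77.3 units in irradiated thymi, against 31.7, 27.9 and 34.9 in untreated thymi. All irradiated livers lay below all untreated livers and all irradiated lymphoid libraries lay above, with a contrast of -1.96 ± 0.22 (SE), adjusted p = 3.11e-05. Slc2a9, a urate transporter, had 62.6, 63.2 and 55.2 units in irradiated livers, against 87.6, 78.1 and 74.2 in untreated livers. It had 9.56, 10.7 and 10.6 units in irradiated spleens, against 3.37, 2.94 and 2.43 in untreated spleens, and its contrast was -1.83 ± 0.14 (SE), adjusted p = 5.93e-07.

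Ppat (chr5:76913249-76951578), the first enzyme of purine synthesis, was opposite in the other sense. It had 49.2, 72.2 and 52.7 units in irradiated livers, against 34.1, 35.5 and 36 in untreated livers. It had 24.1, 38.1 and 26.9 units in irradiated spleens, against 48.6, 67.7 and 53.5 in untreated spleens, and 21.5, 21.7 and 19.4 units in irradiated thymi, against 39.2, 42.2 and 44.9 in untreated thymi. The groups did not overlap within any organ, and the contrast was 1.66 ± 0.20 (SE), adjusted p = 7.53e-05. Enho, which encodes the peptide adropin, had effects of -0.90 in liver against 0.96 in spleen and 0.85 in thymus, Bcar1, an adaptor of focal adhesions, had -0.80 in liver against 0.96 in spleen and 0.74 in thymus, and C77080 had -0.90 in liver against 0.53 in spleen and 0.71 in thymus. Across alternatives the class itself was small and moved most, with 4 genes with Xist in each organ, 15 with the GC trend removed and 105 by DESeq2, but the contrasts of these 6 genes stayed called with the GC trend removed, with Xist in each organ and in all 18 refits without 1 library.

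The counts of the remaining lists are to be read against 13.6% of all genes with a lower contrast and 11.7% with a higher one. Of 20 interferon-stimulated genes 5 contrasts were lower, with a median of -0.32, among them Mx1, an antiviral GTPase, with effects of 0.14 in liver against 1.70 in spleen and 0.87 in thymus. Of 22 cholesterol synthesis genes 5 were lower and 1 higher, with Hmgcs1, an HMG-CoA synthase, at -1.05. Of 20 genes of fatty acid oxidation 5 were lower, of 17 clock genes 3, of 12 glucocorticoid-responsive genes 3, of 13 gluconeogenic genes 1 and of 17 acute phase genes 1, with medians of -0.35, 0.38, 0.14, -0.0027 and -0.76. The gluconeogenic and acute phase counts lie below the share over all genes. The acute phase median stood beside that of the hepatocyte marker list, whose 12 genes had a median contrast of -1.68 and 1 called member, Ass1, a urea cycle enzyme. Ass1 had 57.5, 70.5 and 62.3 units in irradiated spleens, against 21.9, 22.1 and 20.7 in untreated spleens, and 115, 102 and 127 units in irradiated thymi, against 43.1, 34.4 and 41.3 in untreated thymi. Ass1 is itself 1 of the 12 genes in the hepatocyte sums, so those sums are not independent of its rise. The part of hepatocyte transcripts in the lymphoid rise of Ass1 was not tested. Leaving out the 3 libraries high in hepatocyte transcripts gave 2906 genes with a called contrast.

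**Figure D5:**
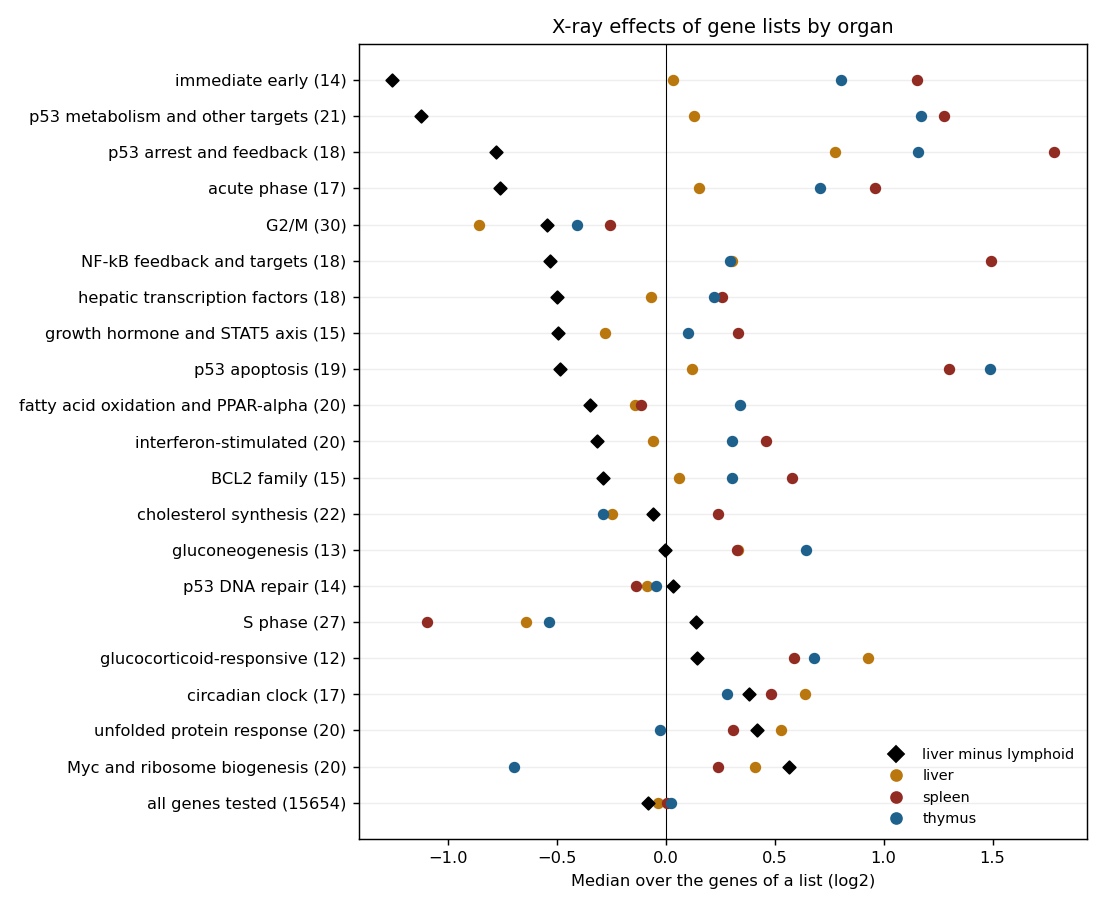
Median log2 X-ray effect in liver, spleen and thymus and median contrast (horizontal axis) for 20 gene lists and for all genes tested. The immediate early, p53 metabolism and p53 arrest lists have the lowest median contrasts, at -1.25, -1.12 and -0.78, against -0.08 for all genes, and the ribosome biogenesis list the highest, at 0.57.

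Markers of other cell types are set against the same shares, 13.6% lower and 11.7% higher over all genes. B cell markers were lower for 1 of 12, and T cell and thymocyte markers higher for 1 of 14. Neutrophil markers were called for 0 of 11, with a median of -0.76. Megakaryocyte markers were lower for 1 of 9, endothelial markers for 2 of 9 and thymic epithelial markers for 3 of 10. Erythroid markers were higher for 1 of 12, Tfrc (1.71), the transferrin receptor. The contrast was nevertheless negative for 11 of these 12, with a median of -0.56. The endothelial and thymic epithelial counts lie above the share over all genes. However, only 3 of the 10 thymic epithelial markers were expressed in each organ. Psmb11, 1 of the 3 lower ones, had at most 5 reads in any liver and 2 in any spleen, so no response could be seen there. The sum of 10 thymic epithelial markers was 3462 to 3834 units in irradiated thymi against 2321 to 2498 units in untreated thymi. These markers are not confined to thymus, since they summed to 1317 to 1659 units in irradiated and 1465 to 1533 units in untreated livers. The sum of 14 T cell and thymocyte markers was 6945 to 8848 units in irradiated thymi against 7128 to 8115 units in untreated thymi, so it overlapped. The part of these shifts in cell makeup in the contrast was not tested.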

How the data were processed

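RNA was extracted from organ pieces kept in RNAlater, and libraries were made with a stranded total RNA kit, per the labels' protocols. The authors deposited a table of normalised signal per gene, which the submitters' processing notes tie to mm10 and to edgeR, version unstated. Aligner, counter and strand setting were not given in the sources used here, and overlapping and antisense genes may share reads. The deposited signal is CPM scaled by a factor per library: whole reads were recovered from its steps for 100% of values at a tolerance of 0.01. Of 36 value columns 18 were used, and the other 18 matched no sample here. Of 19001 genes 18380 (96.7%) were matched to symbols.

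Genes reaching 1 unit of signal in 3 or more of the 18 libraries (15654, leaving 3347 out) were fitted with limma 3.58.1 in R 4.3.3 on log2(signal + 0.5), as 6 group means with a variance trend and Benjamini-Hochberg adjustment over all of them. This scale understates the change of low genes. All p-values are two-sided, SE comes from the fit, and intervals are 95%. Reads carried no molecular identifiers, so values from few reads cover counting error only. edgeR 4.0.16 and DESeq2 1.42.0 on recovered reads, other filters, pseudocounts, scalings and covariates, and each library left out in turn were alternatives. The limma fit was tested on simulated reads of a fixed spread. Those held no GC trend, sex difference or outlying library, so that test does not cover these features of the data. Python 3.11.15 searched the promoters. GC content came from the longest GENCODE transcript of 14248 genes.

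Named genes were a panel of 11 p53-related genes, and the genes of largest contrast in each class with a contrast of at least 1 either way and a mean of at least 5 units (10 and 6 of the lymphoid class, 8 and 8 of the liver class, 6 with opposite responses), and up to 4 called members per list with the smallest p. Other list members are named as examples, chosen after their values were seen. Predicted genes and pseudogenes were counted and not named. A gene that this rule names is not reported here. Of 479 list entries 471 were tested. The gene lists, the comparison and the classes were chosen with earlier results of these data known.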

Additional observations from a re-analysis of the deposited data

Results flagged for a closer look

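The liver and lymphoid X-ray effects differed by a test of the difference itself for 3956 genes, which is the contrast of the report. Among them the effects were called in opposite directions for 29 genes with a positive contrast and 18 with a negative one.

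The contrasts that stood out among genes with opposite or one-sided responses were -4.07 for Bbc3, -3.90 for Cish, -1.96 for Id2, -1.83 for Slc2a9, -1.80 for Enho, -1.64 for Bcar1, -1.52 for C77080 and 1.66 for Ppat. Bbc3 rose in spleen and thymus with overlapping liver groups. Cish fell in liver and rose in spleen. Ppat rose in liver and fell in both lymphoid organs, and the other 5 fell in liver and rose in both lymphoid organs. All 8 were called in each of the 18 refits without 1 library.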

How the results depend on the processing

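The number of genes with a called contrast, 3956, stayed within 1.5 times under the other pseudocounts, filters, scalings, edgeR (3515) and DESeq2 (4296), and moved under the corrections chosen after seeing the data: 2516 with the GC trend removed, 2602 with Xist in each organ and 1509 with both. With the GC trend removed the other counts that moved were 1226 for liver minus thymus, 974 in liver, 269 in the lymphoid class, 135 in the liver class and 15 opposite. With Xist in each organ they were 964 for liver minus thymus, 302 in liver, 1034 in thymus, 220 in the lymphoid class, 72 in the liver class and 4 opposite. With both they were 2250 for liver minus spleen, 481 for liver minus thymus, 266 in liver, 990 in thymus, 148 in the lymphoid class, 33 in the liver class and 2 opposite. A single Xist term gave 1032 in liver and 29 opposite. Quantile scaling gave 941 in liver and 204 in the liver class, edgeR 941, 184 and 30 opposite, and DESeq2 105 opposite. Organ weights gave 544 in liver, 3005 in thymus, 154 in the liver class and 26 opposite. Without the 3 libraries high in hepatocyte transcripts, also chosen after seeing the data, the counts were 2093 for liver minus spleen, 1307 for liver minus thymus, 2199 in spleen, 791 in thymus, 148 in the lymphoid class, 174 in the liver class and 8 opposite. The cause of these moves was not tested, apart from fewer libraries or genes where libraries or genes were left out.

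Leaving out each library in turn gave 2475 to 5408 for the contrast, 3014 to 5173 for liver minus spleen, 1155 to 4496 for liver minus thymus, 248 to 4377 in liver, 4093 to 6174 in spleen, 689 to 2380 in thymus, 193 to 487 in the lymphoid class, 58 to 1133 in the liver class and 5 to 230 opposite. Liver X-ray libraries 1 and 2 gave the extremes for the contrast, the liver effect and the liver class.

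Of 117 named genes, the number that kept its direction and its side of the threshold was 95 with the GC trend removed, 102 with Xist in each organ, 80 with both, 100 with edgeR, 108 with DESeq2 and 96 without the hepatocyte-high libraries, and 109 to 117 under the other settings that tested all of them with every library. Genes at a few reads in an organ, such as Tnfsf4 in liver, are limited by depth. The contrast of Amy2a4 turned to -0.21 with edgeR and -0.32 with DESeq2. That of Trp53, near 0 and never called, turned to 0.15 with the GC trend removed, 0.038 with Xist in each organ, 0.20 with both and 0.076 without the hepatocyte-high libraries, and ranged from -0.11 to 0.082 over the libraries left out.

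The labels do not say whether a replicate number marks one mouse, although by Xist and Ddx3y libraries of one number and treatment had the same sex in all 3 organs. Correlations could not decide this, and the numbers were not taken as pairs. Of 18 pairs of libraries of one number and treatment from different organs 11 correlated above 0.1 (-0.06 to 0.47, median 0.17). Of 18 pairs of one number that differed in organ and treatment 6 did (median 0.02). Of 9 pairs within an organ 5 did, but these set an irradiated against an untreated library and cannot come from one mouse. With a replicate block the contrast called 4171 genes, and with a replicate block within treatment 4248, a fit in which the effects of single organs cannot be estimated.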
